A study of Mus musculus with 7 samples.

Results

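The genes described are those of the cytosolic ribosome, the particle that translates messenger RNA in the cytoplasm, together with the paralogues that carry ribosomal protein names. They were taken by symbol: every symbol that starts with Rpl or Rps and a number, or is Rplp0, Rplp1, Rplp2 or Rpsa, without the Rps6 kinases and without pseudogenes. Only probe sets annotated with 1 symbol were used, and each gene was represented by its probe set of highest mean over all 7 arrays. The rule gave 50 genes of the 18194 tested. By their names 22 belong to the large subunit and 21 to the small subunit. A further 6 are paralogues (Rpl39l, Rpl3l, Rpl22l1, Rpl7l1, Rps4l and Rps27l), and Rps19bp1, the gene of a protein that binds Rps19, came in by its symbol alone.

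RNA of whole testis was compared between 3 arrays of Phf13 knockout mice and 4 arrays of wild type mice, all 15 to 20 weeks old. How the Phf13 allele was made and the strain of the mice are not given in the sources used here. No label says whether each array stands for its own animal. The p-values therefore cover the spread between these arrays alone, which may be technical. The product of Phf13 is a chromatin protein whose PHD finger binds histone H3 methylated at lysine 4. Its log2 signals were 6.04, 5.83 and 5.71 in the knockout arrays, against 8.66, 8.64, 8.73 and 8.54 in the wild type arrays. The sources used here do not place the Phf13 probe set relative to the altered part of the gene. The values are the authors' log2 signals, and a fold change is the knockout mean minus the wild type mean of them. A gene is said to have risen or fallen only with a limma adjusted p under 0.05 over all tested genes. Signals of different probe sets are not on a common scale, so levels are compared between genotypes and not between genes.

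Each cytosolic ribosome joins a small subunit, which reads the message, and a large subunit, which forms the peptide bonds, and nearly every ribosomal protein is present in 1 copy per ribosome. Ribosomal protein messages of mammals begin with a run of pyrimidines that places their translation under mTOR signalling. In male germ cells the X chromosome is silenced in meiosis and stays largely repressed in spermatids, and several X-linked ribosomal protein genes have autosomal paralogues that are transcribed in germ cells. Rpl39l, the best known of those measured here, replaces Rpl39 at the exit tunnel of the ribosome in mouse spermatocytes and spermatids.

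Of the 50 genes, 2 lie on the X chromosome, Rps4x and Rpl39, and the other 48 lie on autosomes. The bases from 120 before the annotated start to 20 from it are shown for these 2 genes and for the testis paralogue Rpl39l, as the genes on which the parent and paralogue comparison turns. They come from RefSeq, build GRCm38.p6, and capitals mark a match to CCGGAAG or TATAAA on either strand. The Rps4x window is chrX:102189372-102189511 on the minus strand, the Rpl39 window chrX:37085203-37085342 on the minus strand, and the Rpl39l window chr16:10170108-10170247 on the plus strand.
Rps4x: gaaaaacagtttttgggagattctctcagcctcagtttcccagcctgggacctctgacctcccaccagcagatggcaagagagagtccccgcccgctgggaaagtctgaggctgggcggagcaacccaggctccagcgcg
Rpl39: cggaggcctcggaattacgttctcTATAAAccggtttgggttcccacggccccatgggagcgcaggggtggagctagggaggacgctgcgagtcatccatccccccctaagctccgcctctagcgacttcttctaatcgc
Rpl39l: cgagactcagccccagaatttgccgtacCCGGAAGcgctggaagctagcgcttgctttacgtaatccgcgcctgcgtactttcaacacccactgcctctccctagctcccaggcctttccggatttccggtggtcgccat
The Rps4x window holds no match to either motif or to TGACGTCA. The Rpl39 window holds TATAAA, and the Rpl39l window holds CCGGAAG.

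Windows of 300 bases (250 before the start and 50 after it) were found for 44 of the 50 genes, 52 windows in all. CCGGAAG, read on both strands, was in 40.4% of these windows and in 8.86% of all 32851 promoter windows. TATAAA was in 11.5% of them and in 13.6% of all windows, and TGACGTCA in 3.85% and 1.79%. A run of at least 8 C or T on the sense strand was sought within the 20 bases on each side of the start. It was in 38.5% of the ribosomal protein windows and in 16.0% of all windows. The median number of CG dinucleotides per window was 22.5 for ribosomal protein genes (range 2 to 39) and 7 for all windows. A match describes these letters in these windows and was not measured as binding.

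Testes without Phf13 differed from wild type in 1 of the 50 genes at the threshold, and that gene was Rps4x, an X-linked protein of the small subunit, which rose. None fell. Among all tested genes 9.07% rose and 7.05% fell. The median log2 fold change was 0.07 over the 50 genes and −0.045 over all tested genes. In direction, 36 of the 50 genes (72%) were higher in knockout testis, where 40.1% of all tested genes were. An unadjusted p under 0.05 in limma was found for 10 of the 50 (20%), below the share of all tested genes (33.8%). The knockout arrays all lay above the wild type arrays in 8 genes, where 12.8% of all tested genes did so. They all lay below in 3 genes, where 15.2% of all tested genes did so.

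**Figure D1:**
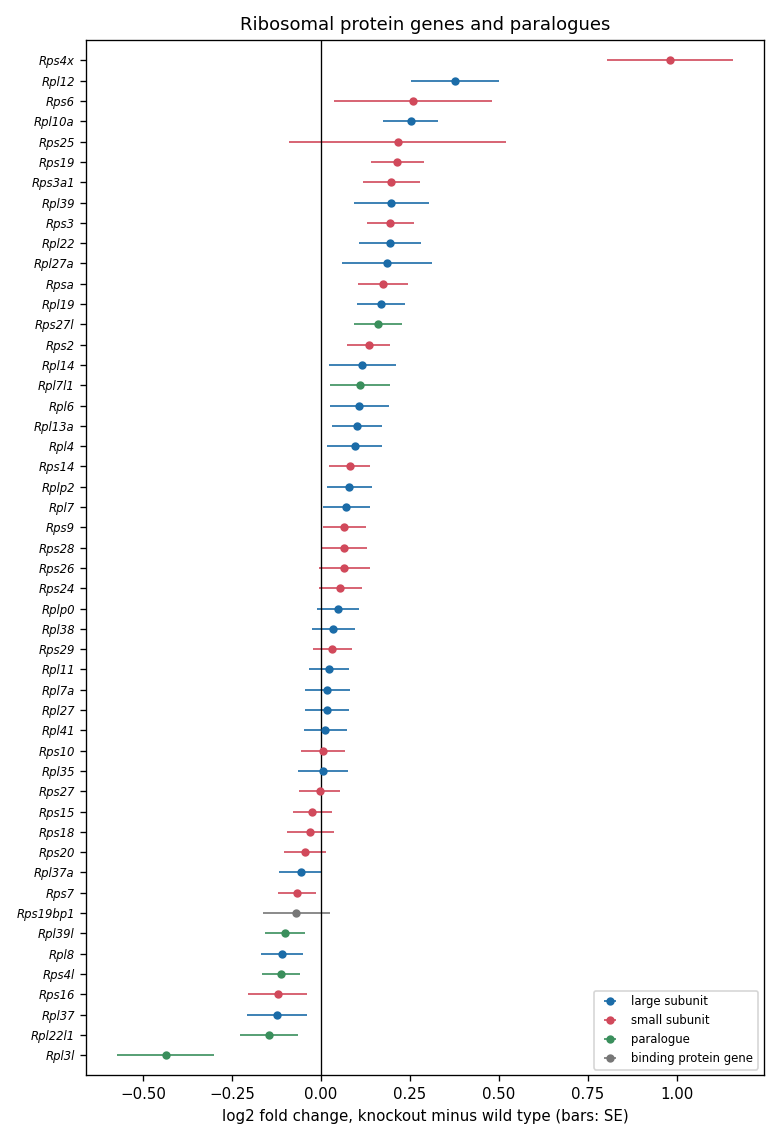
Log2 fold change (knockout minus wild type) of each of the 50 genes, with its standard error, coloured by class. Rps4x, at 0.98, lies apart from the other 49 genes, which run from −0.44 (Rpl3l) to 0.38 (Rpl12).

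The bright subunit genes had narrow confidence intervals. These bound the array signal, and how closely it follows RNA amount at such brightness was not tested. A mean over log2 10 was found for 33 of the 43 subunit genes, a limit chosen after their values were seen, and Rps4x (mean 9.66) is not among them. Their log2 fold changes ran from −0.11 for Rpl8 to 0.25 for Rpl10a, and none passed the threshold. Every unadjusted 95% confidence interval among these 33 lay between −0.24 (Rpl8) and 0.43 (Rpl10a), which is 0.844-fold to 1.35-fold. A further 7 of the 50 genes had a mean below the median of all tested genes (6.33) and may lie at background: Rpl3l, Rps16, Rps27, Rpl14, Rpl39, Rps6 and Rpl12.

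Rps4x encodes a protein of the small subunit. It had log2 signals of 10.06, 10.31 and 10.29 in the knockout arrays, against 9.06, 8.83, 9.49 and 9.58 in the wild type arrays. The lowest knockout array lay above the highest wild type array, and wild type 1 and 2 were the lowest of all. Rps4x averaged 10.22 ± 0.14 in the knockout arrays (SD, n = 3) and 9.24 ± 0.36 in the wild type arrays (SD, n = 4). It rose by 0.98 (SE 0.18) on the log2 scale, or 1.97-fold, with limma adjusted p = 0.0146. An exact two-sided permutation test gave p = 0.0286, the smallest that 35 divisions of 7 arrays allow.

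Array titles open with a number whose meaning is not stated. Sorted by the first 4 digits of it, the arrays fall into 3 groups, each with both genotypes, here called title-number groups. After the mean of each genotype was removed, knockout and wild type arrays of 1 group correlated at 0.10 to 0.32 over all tested genes, and those of different groups at −0.17 to 0.02. The other tests given take no account of these groups. With them as a block Rps4x rose by 0.97 (limma adjusted p = 0.0269). Within them Rps4x was higher in knockout by 1.00 (knockout 1 and wild type 1), 1.15 (knockout 2 and wild type 2 and 3) and 0.71 (knockout 3 and wild type 4). Without knockout 3 its log2 fold change was 0.95 with an adjusted p of 0.0595 in limma. Its dimmer second probe set, 1420303_x_at, pointed the other way, with log2 signals of 5.17, 5.13 and 5.12 in knockout arrays and 5.37, 5.4, 5.28 and 5.4 in wild type arrays, so the mean of both probe sets gave 0.38 (adjusted p = 0.0313).

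Rpl39, the other X-linked gene and a small protein of the exit tunnel, had a dim probe set. Its log2 signals were 6.04, 5.96 and 6.09 in knockout arrays and 5.56, 6.01, 5.92 and 5.84 in wild type arrays. Wild type 1 was the lowest and wild type 2 lay among the knockout arrays. Rpl39 thus had a log2 fold change of 0.20 (SE 0.11), with limma adjusted p = 0.225.

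Among the autosomal genes of the large subunit, Rpl10a came nearest to the threshold. Its protein forms the L1 stalk, which handles transfer RNA as it leaves. Rpl10a signals were 11.40, 11.46 and 11.43 in knockout arrays and 11.04, 11.13, 11.21 and 11.33 in wild type arrays, with no overlap. Rpl10a had a log2 fold change of 0.25 (SE 0.08) with limma adjusted p = 0.0586. It passed at an adjusted p under 0.05 with quantile normalization, among other settings. With median centring (limma adjusted p = 0.0881) and the title-number block (limma adjusted p = 0.0689), among others, Rpl10a did not pass. Rpl12, at the base of the P stalk, had signals of 5.39, 4.99 and 5.55 in knockout arrays and 4.99, 4.84, 4.91 and 4.99 in wild type arrays. Rpl12 in knockout 2 equalled the highest wild type arrays, and the log2 fold change was 0.38 with limma adjusted p = 0.0716. Rpl19 had signals of 11.20, 11.27 and 11.29 in knockout arrays and 11, 11.02, 11.15 and 11.17 in wild type arrays. The Rpl19 arrays did not overlap, and its log2 fold change of 0.17 had a limma adjusted p of 0.122.

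Of the small subunit, Rps3, a protein of the messenger RNA entry channel, had signals of 10.72, 10.81 and 10.78 in knockout arrays and 10.51, 10.50, 10.65 and 10.64 in wild type arrays. Rps19, whose human counterpart is mutated in Diamond-Blackfan anaemia, had 10.47, 10.59 and 10.59 in knockout arrays and 10.19, 10.33, 10.40 and 10.42 in wild type arrays. The groups did not overlap for either gene, with log2 fold changes of 0.20 for Rps3 (limma adjusted p = 0.0778) and 0.22 for Rps19 (limma adjusted p = 0.0842). Rpsa, which binds laminin as well as the ribosome, had 10.73, 10.77 and 10.87 in knockout arrays and 10.52, 10.57, 10.68 and 10.69 in wild type arrays. Rps3a1 had 11.44, 11.54 and 11.59 in knockout arrays and 11.25, 11.20, 11.41 and 11.44 in wild type arrays. Rpsa arrays did not overlap while Rps3a1 arrays touched at 11.44, and limma adjusted p was 0.119 for Rpsa and 0.123 for Rps3a1. Rps2 was also higher without overlap, by 0.13 (limma adjusted p = 0.156).

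The subunit genes that were lower in knockout testis differed by less. Rpl8 had signals of 11.22, 11.33 and 11.22 in knockout arrays and 11.32, 11.39, 11.40 and 11.35 in wild type arrays. Rpl37 had 8.30, 8.53 and 8.31 in knockout arrays and 8.38, 8.51, 8.50 and 8.62 in wild type arrays. The arrays overlapped in both genes. Rps7, which takes part in small subunit assembly, had 12.29, 12.29 and 12.26 in knockout arrays and 12.33, 12.36, 12.34 and 12.36 in wild type arrays. That was the only subunit gene with all knockout arrays below all wild type arrays, at a log2 fold change of −0.07 (limma adjusted p = 0.398). Rpl37a had 12.56, 12.64 and 12.58 in knockout arrays and 12.56, 12.69, 12.68 and 12.67 in wild type arrays. Rps20 had 12.52, 12.59 and 12.54 in knockout arrays and 12.53, 12.65, 12.59 and 12.61 in wild type arrays. Both overlapped. Rps16 was dim, with 2.37, 2.22 and 2.35 in knockout arrays and 2.61, 2.35, 2.35 and 2.43 in wild type arrays.

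The remaining subunit genes lay close to 0 or varied widely. Rplp0 and Rplp2, of the P stalk that recruits elongation factors, had log2 fold changes of 0.05 and 0.08. Rpl11, which in surplus binds Mdm2 and so holds back the breakdown of p53, had 0.02. Rps14 had 0.08, Rps28 had 0.07 and Rps29 had 0.03. Rps6, the substrate of the S6 kinases, was dim and had signals of 5.38, 6.04 and 6.31 in knockout arrays and 5.72, 5.26, 5.86 and 5.77 in wild type arrays. Rps25 had the widest spread, with 8.23, 7.11 and 7.92 in knockout arrays and 7.72, 6.85, 7.79 and 7.79 in wild type arrays. Knockout 2 and wild type 2 were the low arrays of Rps25, while wild type 3, of the same title-number group, was not.

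**Figure D2:**
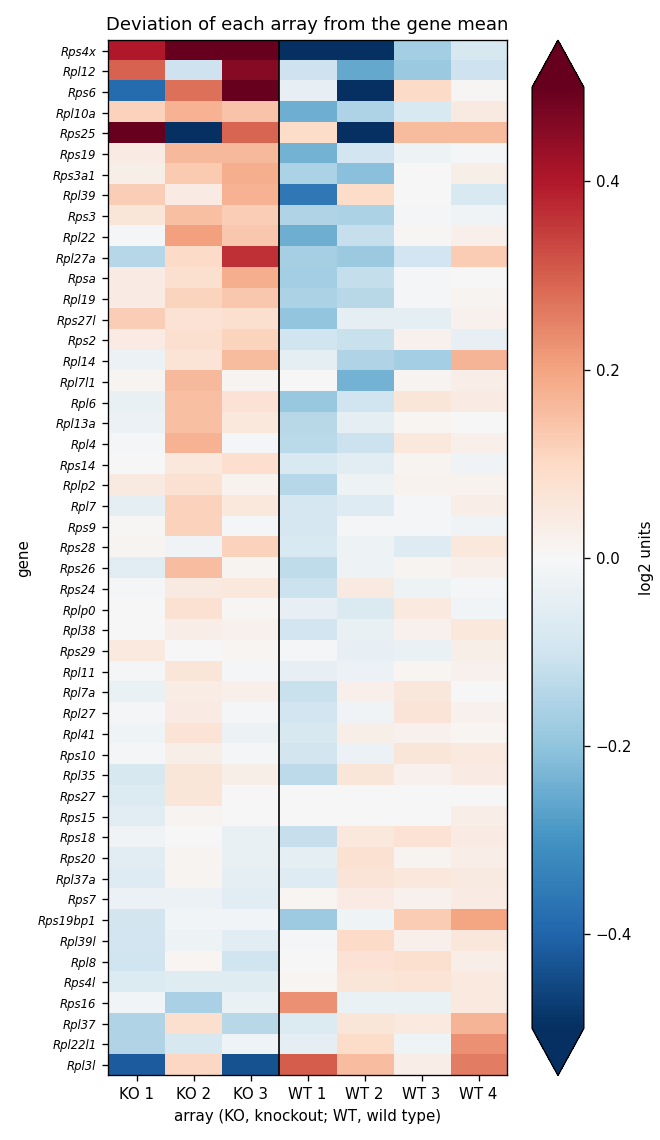
Deviation of each array from the mean of each gene over 7 arrays, in log2 units, with the knockout arrays left of the wild type arrays and genes ordered by fold change (the scale ends at 0.5). Knockout 2 is high and wild type 1 low in many genes, and Rps4x differs by genotype in all arrays.

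The arrays of a genotype did not move as 1 block. The median deviation of the 50 genes from their own means was −0.01, 0.07 and 0.02 in the knockout arrays, against −0.09, −0.03, 0.01 and 0.03 in the wild type arrays. Wild type 1 alone held the lowest value of 26 of the 50 genes, and knockout 2 alone held the highest of 16. Of the 33 bright subunit genes, 13, 30 and 22 lay above their own mean in the knockout arrays, against 3, 10, 23 and 24 in the wild type arrays. Knockout 1 thus had fewer of them above the mean than wild type 3 and 4. The median difference between knockout and wild type was 0.08, 0.07 and 0 in the 3 title-number groups that hold knockout 1, 2 and 3. In the group of knockout 3, 24 genes were higher and 24 lower.

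Several probe sets were available for 24 of the genes, from 2 to 6 each, and for 14 of these all probe sets pointed in 1 direction. The median spread between the log2 fold changes of a gene's probe sets was 0.10. It was widest for Rps4x (1.20) and next for Rps24, a small subunit gene, whose 6 probe sets ran from −0.26 to 0.27. Rps24 itself, by its brightest probe set, had a log2 fold change of 0.05.

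None of the 6 paralogues passed the threshold. Of them 4 were lower and 2 higher in knockout testis, with a median log2 fold change of −0.11. Of the 43 subunit genes 9 were lower, and their median was 0.07. Among all tested genes 59.9% were lower, and the median was −0.045. Rpl39l had log2 signals of 12.20, 12.27 and 12.24 in knockout arrays and 12.29, 12.39, 12.32 and 12.35 in wild type arrays. All knockout arrays were lower, by 0.02 at the nearest. That is a log2 fold change of −0.10 (SE 0.06), or 0.932-fold, with limma adjusted p = 0.248. Rps4l, an autosomal relative of Rps4x, had 10.62, 10.63 and 10.63 in knockout arrays and 10.70, 10.75, 10.76 and 10.74 in wild type arrays. These arrays also did not overlap, and Rps4l differed by −0.11 (SE 0.05) on the log2 scale, with limma adjusted p = 0.183.

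Rpl22l1, the paralogue of Rpl22, had signals of 10.57, 10.64 and 10.70 in knockout arrays and 10.67, 10.81, 10.70 and 10.95 in wild type arrays. The groups overlapped, and limma adjusted p was 0.243. Rpl3l, a paralogue known from striated muscle, was dim, with 4.51, 5.03 and 4.49 in knockout arrays and 5.23, 5.08, 4.96 and 5.18 in wild type arrays. Its log2 fold change of −0.44 (SE 0.14) had a limma adjusted p of 0.0627, and knockout 2 lay among the wild type arrays. Rps27l, a p53 target, was higher without overlap, with 10.43, 10.38 and 10.39 in knockout arrays and 10.11, 10.26, 10.26 and 10.33 in wild type arrays (limma adjusted p = 0.138). Rpl7l1, a paralogue that acts in pre-ribosome maturation, had signals of 7.63, 7.78 and 7.63 in knockout arrays and 7.62, 7.38, 7.63 and 7.65 in wild type arrays, which overlapped. Its log2 fold change was 0.11 and that of Rps19bp1 −0.07, with limma adjusted p of 0.388 for Rpl7l1 and 0.634 for Rps19bp1.

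**Figure D3:**
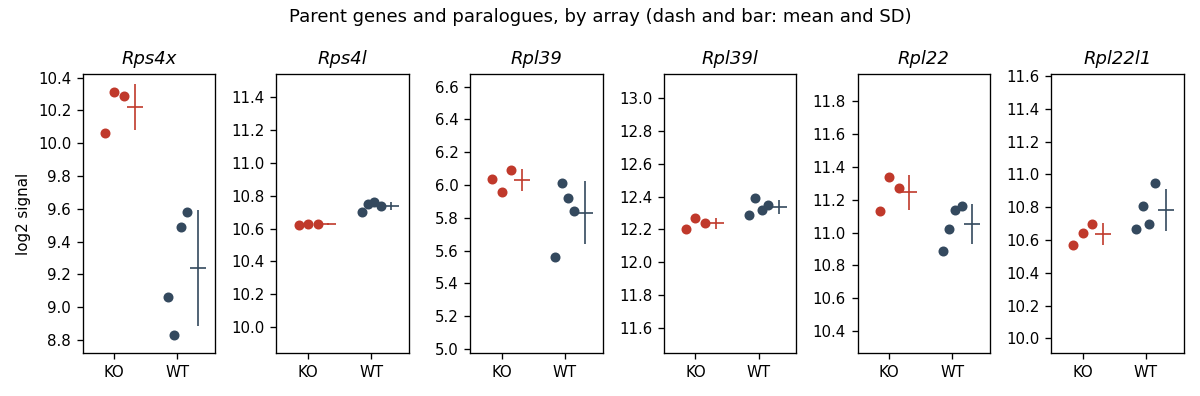
Log2 signal of 3 parent genes and their paralogues in each array, knockout (KO) left of wild type (WT), with mean and SD beside the points, on axes of equal span. Rps4x lies at 10.06 to 10.31 in knockout and 8.83 to 9.58 in wild type, while Rps4l and Rpl39l are lower in all knockout arrays by small steps.

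Paralogue and parent were then set against each other within each array. The difference of 2 log2 signals within an array depends on both probe sets, so only its change between genotypes is read. Of 8 pairs listed, 5 had both genes measured, and Rpl10l and Rpl10 were not, since no probe set with 1 symbol represents either. Rps4l minus Rps4x was 0.56, 0.32 and 0.34 in knockout arrays and 1.64, 1.92, 1.27 and 1.16 in wild type arrays, a change of −1.09, and of −0.49 with the mean of all probe sets of each gene. Rpl39l minus Rpl39 was 6.16, 6.31 and 6.15 in knockout arrays and 6.73, 6.38, 6.4 and 6.51 in wild type arrays, a change of −0.30. The groups did not overlap in either pair, and the exact two-sided permutation p was 0.0286 for each. Adjusted over the 5 pairs, the exact permutation p was 0.0714 for both, and neither passed. In Rps4l minus Rps4x the greater part of the change lay in Rps4x (0.98) and the lesser in Rps4l (−0.11). In Rpl39l minus Rpl39 the greater part lay in Rpl39 (0.20) and the lesser in Rpl39l (−0.10). The Rpl39 probe set is dim and may lie at background, so this pair may not show a change between the genes. Rpl39l minus Rpl39 moved by −0.57, −0.08 and −0.36 within the title-number groups of knockout 1, 2 and 3.

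Rpl22l1 minus Rpl22 was −0.56, −0.70 and −0.57 in knockout arrays and −0.22, −0.21, −0.44 and −0.21 in wild type arrays. The groups did not overlap, with a change of −0.34 and an exact permutation p of 0.0571, 0.0952 after adjustment over the pairs. Rps27l minus Rps27 changed by 0.16 (adjusted exact permutation p = 0.107) and Rpl7l1 minus Rpl7 by 0.04 (adjusted exact permutation p = 0.714). Their arrays overlapped. The parent Rps27 had signals of 5.76, 5.89 and 5.83 in knockout arrays and 5.83 in all 4 wild type arrays, and Rpl7 had 11.37, 11.53 and 11.47 in knockout arrays and 11.33, 11.35, 11.41 and 11.45 in wild type arrays.

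**Figure D4:**
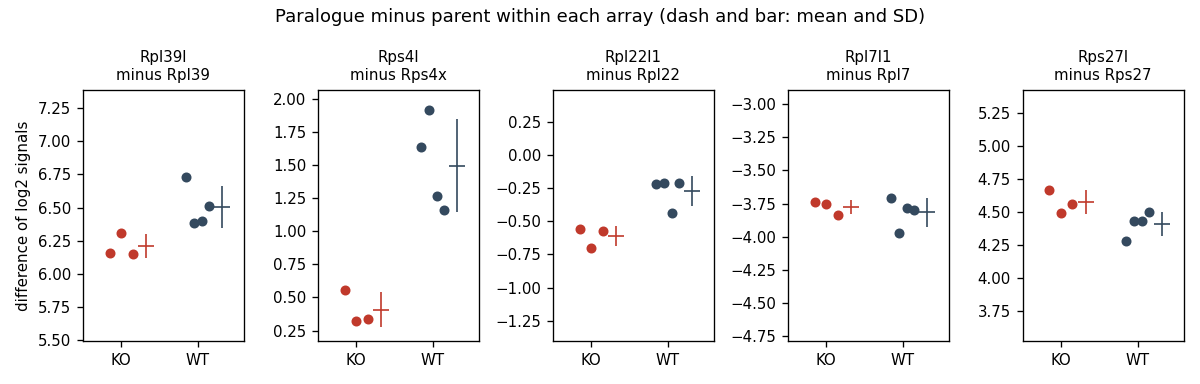
Paralogue minus parent within each array, in log2 units, for the 5 measured pairs, with knockout (KO) left of wild type (WT) and mean and SD beside the points, on axes of equal span. Groups do not overlap for Rpl39l minus Rpl39, Rps4l minus Rps4x and Rpl22l1 minus Rpl22. No pair passes after adjustment, which with 7 arrays needs more pairs at the smallest exact p.

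Rpl22 lies on the same chromosome as Phf13, with 17 genes between them in the RefSeq order, of which 13 were tested. Its signals were 11.13, 11.34 and 11.27 in knockout arrays and 10.89, 11.02, 11.14 and 11.16 in wild type arrays, which overlapped, at a log2 fold change of 0.19 (SE 0.09, limma adjusted p = 0.155). Of the 13 genes between, Klhl21 (−0.55), Zbtb48 (−0.77) and Tas1r1 (−2.75) fell and none rose.

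The 2 X-linked members were set beside all X-linked genes, a division made after their values were seen. Of 617 tested X-linked genes, 194 (31.4%) rose, none fell at the threshold, and the median log2 fold change was 0.18. In limma, 289 of them had an unadjusted p under 0.05. Of 17404 genes placed on other chromosomes, 1452 (8.34%) rose and 7.30% fell, 33.5% had an unadjusted p under 0.05, and the median was −0.05. Of the 48 autosomal members none rose or fell in limma, 9 (18.8%) had an unadjusted p under 0.05, and their median was 0.06.

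Of 81 ribosomal protein symbols in the array annotation, 31 are listed only on probe sets with several symbols, Rpl10, Rpl10l, Rpl3 and Rpl36a among them. Such probe sets cannot be assigned to 1 gene and are given by their identifiers. In a limma fit over all 45101 probe sets, 6 of the 110 that list a ribosomal protein gene rose and none fell, where 5.61% of all probe sets rose and 2.89% fell. Of the 5 that list an X-linked ribosomal protein gene, a class also chosen after the values were seen, 4 rose. Probe set 1415942_at had signals of 10.82, 11.04 and 11.02 in knockout arrays and 9.99, 9.84, 10.35 and 10.28 in wild type arrays. Probe set 1450840_a_at had 11.20, 11.25 and 11.31 in knockout arrays and 10.31, 10.33, 10.63 and 10.80 in wild type arrays. Neither overlapped, and the fifth, 1448697_s_at, ran from 11.20 to 11.24 in knockout and 11.22 to 11.24 in wild type arrays. Of the other 105 probe sets 2 rose, and their median log2 fold change was 0.05.

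Cell type markers moved in the same samples, in which 9.07% of all tested genes rose and 7.05% fell. Of 18 measured Sertoli cell markers 16 rose, with a median of 0.65, Wt1 (0.78) and the X-linked Rhox5 (0.73) among them. Their summed linear signal was 21369 to 23939 in knockout arrays, against 12573 to 16306 in wild type arrays, and the lowest log2 signal of any of them was 5.14. Of 11 Leydig cell markers 6 rose (median 0.80), Cyp11a1 (0.58) among them, with sums of 10411 to 12724 in knockout arrays and 6103 to 8200 in wild type arrays. Of 15 macrophage markers 6 rose, with overlapping sums of 3761 to 4470 in knockout arrays and 3675 to 3815 in wild type arrays. Their lowest signal was 2.91. The part of these cell types in the Rps4x result was not tested.

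Germ cell markers were counted in the same way, beside the same shares of all tested genes (9.07% rose and 7.05% fell). Of 13 spermatogonial markers 3 rose (23.1%), with overlapping sums of 2963 to 3307 in knockout arrays and 3002 to 3228 in wild type arrays. Of 16 spermatocyte markers 4 fell (25%), with overlapping sums of 25419 to 28061 in knockout arrays and 27565 to 28209 in wild type arrays. Of 17 spermatid markers 5 fell (29.4%) and all 17 were lower, where 59.9% of all tested genes were lower. Their sums were 90887 to 92092 in knockout arrays and 93654 to 99994 in wild type arrays. In RNA of a whole organ, fewer cells of a type and less RNA per cell cannot be told apart, and the part of these markers in the Rpl39l and Rps4l values was not tested.

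The genes that build and use ribosomes were examined beside them. Among all tested genes 9.07% rose and 7.05% fell. Of 83 measured ribosome biogenesis factors 3 rose (3.61%) and 5 fell (6.02%), with a median of −0.03. Nucleolin (Ncl), the major nucleolar protein, rose by 0.40, and Gnl3l, a nucleolar GTPase gene on the X chromosome, rose by 0.42. Ddx56, a nucleolar RNA helicase gene, had a log2 fold change of −0.33 and Wdr12, of the complex that matures the large subunit, of −0.28, and both fell. Limma adjusted p ran between 0.0181 (Gnl3l) and 0.0347 (Ncl) for these 4 genes.

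Of 54 translation factors 4 rose (7.41%) and 2 fell (3.70%), with a median of −0.03. Eif2s3x, the gamma subunit of the factor that delivers initiator transfer RNA, had signals of 7.77, 7.65 and 7.74 in knockout arrays and 7.03, 7.07, 7.38 and 7.29 in wild type arrays, and rose by 0.53. The termination factor gene Gspt2 rose by 0.43 and Eif1ax, of start codon selection, by 0.31. These 3 are the X-linked genes of that list, and all 3 rose, while 1 of its 51 other genes rose, the helicase gene Eif4a1 (0.39). Eif2b4, of the exchange factor of eIF2, fell by 0.28. Among the 3 X-linked biogenesis genes Gnl3l rose, and Dkc1 (0.24) and Utp14a (0.11) did not pass. This split by chromosome was also made after the values were seen.

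Of 16 regulators of mTOR signalling and of the translation of ribosomal protein messages, 3 rose (18.75%) and 1 fell (6.25%), with a median of 0.01. Shares over all tested genes were 9.07% and 7.05%. Rheb, the GTPase that activates mTOR complex 1, rose by 0.29, and Tsc2, which holds Rheb inactive, fell by 0.26. Deptor, an mTOR inhibitor, rose by 0.24 and Cnbp, which binds such messages, by 0.30. Of 76 mitochondrial ribosomal protein genes 2 rose (2.63%) and 4 fell (5.26%), with a median of −0.05. Mrps24 rose by 0.32 and Mrps17 by 0.32, and Mrpl54 fell by 0.31 and Mrpl37 by 0.25. Fau, the ubiquitin-like fusion that gives a small subunit protein outside the symbol rule, had a log2 fold change of 0.07 (limma adjusted p = 0.461). The single measured pseudogene, Rps15a-ps6, had 0.03 and was very dim.

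**Figure D5:**
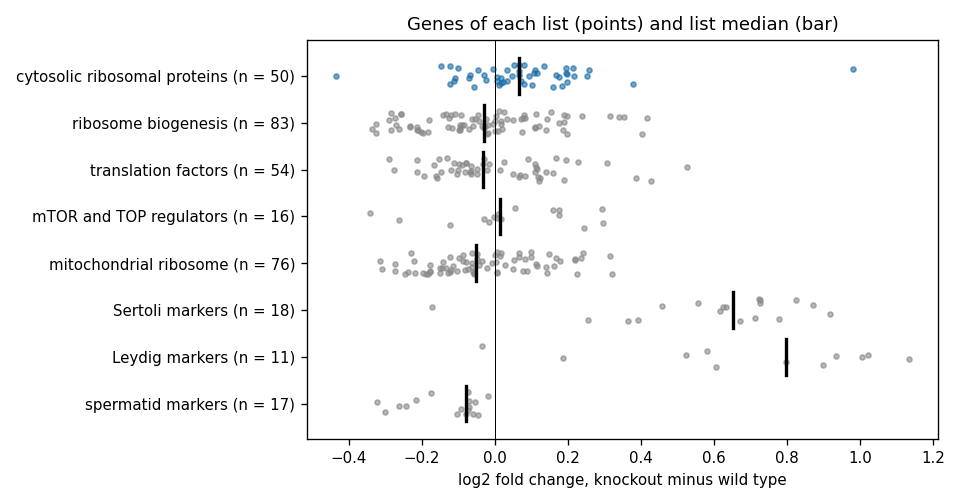
Log2 fold change (knockout minus wild type) of every measured gene of each list, with the median as a bar. Ribosomal protein genes, biogenesis factors, translation factors and mitochondrial ribosomal protein genes centre near 0, spermatid markers just below it, and Sertoli and Leydig markers at 0.65 and 0.80.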

How the data were processed

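Total RNA of whole testis was extracted with Trizol and labelled with biotin, per the labels. The deposited table holds the authors' log2 signals of 45101 probe sets on 7 arrays. The submitters' processing notes name the program Affymetrix Expression Console 1.4.1, while the summarisation, background correction and normalization are not given in the sources used here. The log2 scale was read from the range of the values (1.59 to 13.92). Detection calls were not used. Precision is limited by the number of arrays (median standard error of a fold change 0.0843).

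Symbols came from a platform annotation table: 34958 probe sets have 1 symbol, 932 several and 9211 none, and only those with 1 were tested, 1 per gene. Symbols are those of that table, which can be old. RefSeq's GRCm38.p6 gene table gave the chromosome and neighbours of 18033 genes, and RefSeq the promoter windows.

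The 3 knockout and 4 wild type arrays were compared in R 4.3.3 with the lmFit and eBayes functions of limma 3.58.1, two-sided and without covariates, and with Benjamini-Hochberg adjustment over 18194 genes. Pair differences were compared with exact permutation tests over 35 divisions. The limma step was tested on simulated data with independent noise in each array. Those data hold no title-number groups, so the simulation does not cover effects that arrays share. Array values are given for Phf13, both genes of each pair the text turns on, the 10 higher and 10 lower genes of smallest unadjusted p, and Rpl22. Other genes named, Rps6 and Rps25 among them, were picked after their values were seen, and of each other list up to 4 genes of smallest unadjusted p were named, with the X-linked ones added later. The genes and lists were chosen with earlier results of these data known. Alternatives were quantile normalization, median centring, filters on dim genes, other probe set choices, trend and robust settings, array weights, blocks, values within title-number groups and leaving out arrays. Identical values made up at most 9.82% between any pair of arrays, and all 7 were kept as separate samples.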

Additional observations from a re-analysis of the deposited data

Results flagged for a closer look

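A lone wild type array stood far from the other 3 in 7 of the groups examined. Wild type 1 was low in Rpl37a (12.56, the others 12.67 to 12.69), Rps18 (11.1, the others 11.26 to 11.29) and Rps9 (11.13, the others 11.20 to 11.21). Wild type 2 was low in Rpl7l1 (7.38, the others 7.62 to 7.65) and Rps25 (6.85, the others 7.72 to 7.79). Wild type 4 was high in Rps15 (11.19, the others 11.16), a gap of 0.03. Wild type 3 was low in Rpl22l1 minus Rpl22 (−0.44, the others −0.22 to −0.21). Chance marks about 1 in 20 groups in this way, and 55 were examined, Phf13, the members other than Rps27 and the 5 pair differences.

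Of 110 probe sets that list several symbols, a ribosomal protein gene among them, 6 rose in the fit over all probe sets. That is near the share of all 45101 probe sets that rose (5.61%). The 6 lie outside the genes tested and had no overlap between the genotypes. Their log2 fold changes were 0.845 (1415942_at), 0.56 (1416807_at), 0.4967 (1423666_s_at), 0.7117 (1448157_s_at), 0.2733 (1449323_a_at) and 0.7358 (1450840_a_at).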

How the results depend on the processing

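Rps4x rose under every setting with a test except without knockout 3 (adjusted p = 0.0595) and, added after the data were seen, without knockout 3 and wild type 4 (0.0862), where only 4 genes passed in all. The count of genes past the threshold was 2934, and it was 4745 at an adjusted p of 0.1 and 175 to 2574 with 1 array left out. With each array centred on its median 1549 rose and 1680 fell. Members that rose numbered 4 with quantile normalization, over the 9095 brightest genes and with trend and robust settings (Rpl10a, Rps19, Rps3 and Rps4x each time). In these settings 1610 of 18194, 1529 of 9095 and 1820 of 18194 genes rose, and 43 members were among the 9095. Over the 12126 brightest genes 2 of 46 members rose, where 1811 genes did. At an adjusted p of 0.1, 5 members rose, where 2337 genes did. With 1 array left out 0 to 2 members rose, where 96 to 1524 genes did. Members that fell numbered 1 with array weights and at an adjusted p of 0.1 (Rpl3l), where 1351 and 2408 genes fell. They numbered 0 to 1 with 1 array left out, where 79 to 1210 genes fell. Replicate numbers did not pair the samples (correlations of deviations 0.18, 0.10 and −0.14 for numbers 1, 2 and 3). With the replicate block 2294 genes passed and 1 member rose, with Rps4x at 1.09, and with the title-number block 2317 genes passed and 1 member rose.

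The median of the members was 0 within the title-number group of knockout 3. Rpl39l minus Rpl39 kept its direction, at −0.57 and −0.08 within the groups of knockout 1 and 2 and −0.35 to −0.22 with 1 array left out. Rpl10l minus Rpl10 could not be run. Over 21 settings the direction of 22 of the 50 members turned at least once, and that of 28 did not. The log2 fold change of 15 of those 22 was under 0.1 in size, and the other 7 were Rpl14, Rpl37, Rpl39, Rpl3l, Rpl7l1, Rps25 and Rps6. The number that turned was 11 within the group of knockout 3, 7 and 3 within those of knockout 2 and 1, 6 with median centring and 5 without wild type 1. Within the group of knockout 1, Rps6 was −0.34 and Rps19bp1 0.09. Within the group of knockout 2, Rps25 was −0.21, Rpl39 −0.005, Rpl3l 0.01, Rpl37 0.025 and Rps27 0.06. Within the group of knockout 3, Rpl11 was −0.03, Rps29 −0.02 and Rpl7l1 −0.02. With the mean of all probe sets Rpl7l1 was −0.00111 and Rps20 0.109, and without x_at and s_at probe sets Rps20 was 0.286. Rpl11 was −0.0075 with median centring and Rps27 0.003 with the title-number block. With 1 array left out Rps27 was −0.035 to 0.03 and Rps25 −0.0225 to 0.538. Rpl7l1 minus Rpl7 was −0.0182 with quantile normalization, −0.0433 with the mean of all probe sets, −0.0133 to 0.0733 with 1 array left out, and −0.03 and −0.04 within the groups of knockout 1 and 3. The cause was not tested in any of these.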
